A study of Mus musculus with 2 samples.

Results

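The 10 genes described here encode enzymes that break down the branched-chain amino acids leucine, isoleucine and valine: Bcat2, Bckdha, Bckdhb, Dbt, Ivd, Mccc1, Mccc2, Pcca, Pccb and Mut (current symbol Mmut). They were chosen by name, through the gene symbol given for each probe set or an older synonym, and they were represented by 15 of the 45101 probe sets and by 10 of the 19086 genes on the array. The study compared 3T3-L1 cells, a mouse line of preadipocytes that turn into fat cells under hormones, in 2 states. One library came from cells transduced with a retroviral pMXs-puro vector carrying Fbxl10 (current symbol Kdm2b), a histone demethylase and Polycomb partner, under the weak LTR promoter of the vector. The other came from cells transduced with the empty vector. They are called the library labelled Fbxl10 and the empty vector library. Both were grown in 10% fetal bovine serum and were taken at day 2 of differentiation, started 2 days after confluence with 0.5 mM isobutylmethylxanthine, 0.25 µM dexamethasone and 1 µg/ml insulin. Each group was 1 sample on 1 array, so no value below has a replicate check, no p-value is given, and no difference can be set against the spread between cultures.

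Breakdown of branched-chain amino acids takes place mainly in mitochondria. A transaminase first removes the amino group, and a large dehydrogenase complex, built from an E1 enzyme of alpha and beta subunits, an E2 transacylase core and an E3 flavoprotein, then removes the carboxyl group in a step that cannot be reversed. After that step the carbon skeletons part, and leucine yields acetyl-CoA and a ketone body while valine and part of isoleucine yield propionyl-CoA, which becomes succinyl-CoA. Mature adipocytes are known to draw on this pathway as a source of acetyl-CoA for fat, and its capacity is known to increase when 3T3-L1 cells differentiate.

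Values below are signal intensities in arbitrary units, and a log2 difference, given in parentheses after them, is the library labelled Fbxl10 minus the empty vector library. The target gene did not bear out its label. Fbxl10 (Kdm2b) read 350.9 in the library labelled Fbxl10 and 431.6 in the empty vector library at 1452198_at (-0.30), and 419.6 in the library labelled Fbxl10 and 558.5 in the empty vector library at 1459861_s_at (-0.41). The sources used here do not say whether these probe sets lie within the cloned sequence. One outside it would check nothing, so every direction here is one between libraries as labelled.

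Marker genes of the fat cell differed widely between the libraries. In the library labelled Fbxl10 all 7 adipocyte markers analysed (Fabp4, Adipoq, Pparg, Lpl, Cd36, Cfd and Retn) were at least 2-fold lower, against 5.33% of all detected genes. Their summed signal at the brightest probe sets was 1795 there and 16583 in the empty vector library. At the brightest probe sets the lipase Lpl was the least different, at 1395 in the library labelled Fbxl10 and 5591 in the empty vector library, 4.01-fold lower. That rank rests on the probe set, since Lpl was 7.08-fold lower at its other, 1431056_a_at, and Pparg was 6.05-fold lower. The secreted protease Cfd read 3.5, below the detection threshold of 19.4, in the library labelled Fbxl10 and 426.5 in the empty vector library. This makes Cfd at least 21.98-fold lower. Its computed difference was the lowest of the 7, but that rank rests on the signal below the threshold. By the same kind of bound Adipoq was at least 43.37-fold lower and Cd36, at its brightest probe set, at least 35.43-fold lower. Fabp4, with both signals above the threshold, was 40.11-fold lower. Of 5 preadipocyte and fibroblast markers, Thy1 (1.71) and the collagen gene Col1a1 (1.23) were at least 2-fold higher, against 9.75% of all detected genes. The 5 had summed signals of 19826 in the library labelled Fbxl10 and 13216 in the empty vector library. The preadipocyte marker Dlk1 was nearly equal, at 4226 in the library labelled Fbxl10 and 3825 in the empty vector library (0.14), and its sign turned when the arrays were centred on the hybridization spike-ins (-0.08). Macrophage markers were near or below the threshold, with 2 of 4 detected (Cd68 and Csf1r) and summed signals of 56.4 in the library labelled Fbxl10 and 42.0 in the empty vector library. No marker was at 0. In such bulk RNA a smaller share of cells that have become adipocytes and less transcript per cell cannot be told apart, and the part of the fat cell programme in the values of the 10 enzymes was not tested.

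Among the 10 enzymes at their brightest probe sets, the 3 lowest values belonged to genes of the first, shared steps of the pathway. That rank depends on the probe set taken for Ivd, an enzyme of leucine breakdown. Its dimmer probe set was lower than all 3 (-1.86), and the median over its probe sets (-1.41) was below Dbt (-1.22). In the library labelled Fbxl10, transcripts of the transaminase Bcat2 and of the dehydrogenase subunits Bckdhb and Dbt were at least 2-fold lower, while Bckdha, the partner of Bckdhb in E1, was nearly equal in both. The 4 subunits of the 2 biotin-dependent carboxylases further down, Mccc1, Mccc2, Pcca and Pccb, all lay between -0.21 and -0.03 on the log2 scale. A gene was called at 2-fold on its brightest detected probe set, which is no test but a cutoff on size. Detection needed at least 1 of the 2 signals at 19.4, the median of all signals, or above. By this cutoff 3 of the 10 enzymes were lower and 0 higher, against 5.33% and 9.75% of 11326 detected genes. Their median log2 difference was -0.39, against 0.06 for all detected genes, and 9 of 10 were below 0 with the signals as deposited, against 45.9% of all detected genes. All 10 had a detected probe set, and 13 of their 15 probe sets were detected, each with both signals at or above the threshold.

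**Figure D1:**
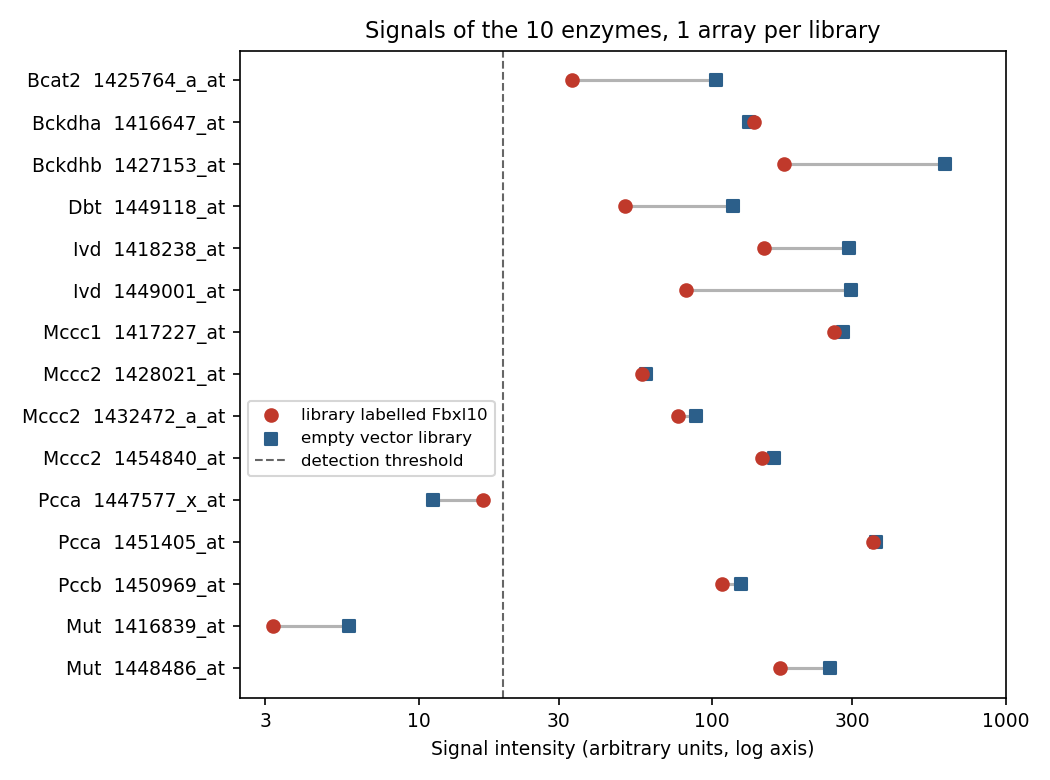
Signal intensity (arbitrary units, log axis) of every probe set of the 10 enzymes, with a red circle for the library labelled Fbxl10, a blue square for the empty vector library and a dashed line at the detection threshold of 19.4. The pairs for Bcat2, Bckdhb, Dbt and Ivd are wide apart with the red circle on the left, those for Bckdha and the carboxylase subunits nearly coincide, and 1 probe set each of Pcca and Mut lies below the threshold in both libraries.

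Bcat2 encodes the mitochondrial branched-chain aminotransferase, which starts the pathway in most tissues outside the liver. It read 33.2 in the library labelled Fbxl10 and 103.0 in the empty vector library at probe set 1425764_a_at, 3.10-fold lower (log2 difference -1.63). Of the detected genes, 1.85% had a difference as low or lower. The lower of these signals stood not far above the detection threshold, and among genes with a mean signal under 100 the SD of the log2 difference between probe sets of 1 gene was 0.35. That SD, from 1357 genes with several probe sets, comes from probe sets read on these 2 arrays and says nothing of the spread between cultures.

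Bckdhb encodes the beta subunit of E1, which with the alpha subunit carries out the decarboxylation. Its probe set 1427153_at read 175.7 in the library labelled Fbxl10 and 622.5 in the empty vector library, 3.54-fold lower (-1.82), the lowest difference among the 10 enzymes at their brightest probe sets. Only 1.39% of detected genes were as low or lower. Bckdha encodes the alpha subunit, which holds the thiamine cofactor together with beta and carries the serine that the complex's kinase phosphorylates. It read 139.0 in the library labelled Fbxl10 and 133.8 in the empty vector library at 1416647_at (0.06), which is close to the middle of all detected genes. Dbt encodes E2, the lipoyl-bearing core that passes the acyl group to coenzyme A. At 1449118_at it read 50.6 in the library labelled Fbxl10 and 117.7 in the empty vector library, 2.33-fold lower (-1.22), with 3.43% of detected genes as low or lower.

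The subunits of this one complex differed unequally between the libraries. The log2 difference of Bckdhb minus that of Bckdha was -1.88, and that of Dbt minus Bckdha was -1.27. A constant rescaling of either array cancels in such a comparison. Of the 11 alternatives for processing, 3 could move these values at all: quantile normalization, removal of the trend on brightness, and the authors' ratio. With those included, the first value ran between -1.88 and -1.60 and the second between -1.40 and -1.27. Bckdhb and Dbt were closer to each other, with -0.61 between them (-0.61 to -0.20 over the alternatives). The SD between probe sets of 1 gene was 0.30 over 4615 genes, and 0.35 over the 1357 with a mean signal under 100, as Dbt had. This SD is that of single log2 differences, while a gap between genes combines more than 1 of them. Each of the 3 subunits had 1 probe set, so none of them could be compared with a further probe set of its own. Unequal differences within the complex do not show that Bckdha was constant.

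The stretch of 250 bases upstream of the annotated start is shown for Bckdhb and Bckdha, the subunits of E1 that stood farthest apart, and for Pccb, a carboxylase subunit described below, whose window held matches to the site of a regulator of mitochondrial genes. The sequences are from RefSeq, build GRCm38.p6, 5′ to 3′ on the strand of the gene, and for Bckdhb, which has 2 annotated starts in that table, the more upstream one was taken. Capitals mark matches on either strand to the motifs searched.
Bckdhb, chr9:83924887-83925136, plus strand: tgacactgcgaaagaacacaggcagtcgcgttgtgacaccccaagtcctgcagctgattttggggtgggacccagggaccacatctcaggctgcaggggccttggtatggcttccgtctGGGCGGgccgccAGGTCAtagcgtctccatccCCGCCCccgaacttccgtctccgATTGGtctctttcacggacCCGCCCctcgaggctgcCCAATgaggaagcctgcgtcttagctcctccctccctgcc
Bckdha, chr7:25658762-25659011, minus strand: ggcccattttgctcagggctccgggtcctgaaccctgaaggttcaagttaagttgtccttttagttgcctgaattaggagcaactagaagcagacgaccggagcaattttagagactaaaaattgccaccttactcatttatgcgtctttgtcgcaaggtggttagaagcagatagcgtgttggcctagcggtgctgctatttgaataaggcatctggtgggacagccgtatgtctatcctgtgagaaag
Pccb, chr9:101034885-101035134, minus strand: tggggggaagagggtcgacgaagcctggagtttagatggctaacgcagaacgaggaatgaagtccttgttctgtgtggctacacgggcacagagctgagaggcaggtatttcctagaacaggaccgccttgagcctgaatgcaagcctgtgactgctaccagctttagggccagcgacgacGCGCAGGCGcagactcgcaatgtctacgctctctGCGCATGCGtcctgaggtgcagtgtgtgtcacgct

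The motifs were the nuclear receptor half-site AGGTCA, its direct repeat with 1 base between (DR1), to which PPAR gamma with its partner RXR binds, the estrogen-related receptor site TCAAGGTCA, the site GCGCANGCG of NRF1, a regulator of mitochondrial genes, the ETS core CCGGAAG, the E-box CACGTG, the GC box GGGCGG and CCAAT. The last was added after the sequences had been seen, and DR1 and the estrogen-related receptor site both contain the half-site. Both strands were searched in windows from 250 bases before to 50 bases after the start, and 8 of the 10 enzymes had such windows, 11 in all. Dbt and Mut had none. The stretch of Bckdhb held 3 GC boxes, 1 half-site and 2 CCAAT matches, and that of Bckdha held 0 matches to any of them. GC boxes were in 3 of the 11 windows (Bckdhb, Mccc1 and Pcca) and in 35.7% of all 32851 promoter windows, and half-sites in 3 windows of 2 genes (Bckdhb and Pcca) and in 16.3% of all. CCAAT was in 7 windows of 5 genes, Ivd with 4 matches among them, and in 37.4% of all. The NRF1 site was in the Pccb window alone, as 2 matches, and in 6.25% of all, and the E-box was in that of Mccc2 alone and in 7.15% of all. DR1, the estrogen-related receptor site and the ETS core were in 0 of the 11 windows, against 0.0396%, 0.423% and 8.86% of all. A match is only a run of letters, and these shares describe the windows without bearing on any factor.

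Ivd encodes isovaleryl-CoA dehydrogenase, the flavoprotein of the third step of leucine breakdown, and it was the enzyme whose call depended on the probe set. Probe set 1418238_at read 150.6 in the library labelled Fbxl10 and 292.3 in the empty vector library, 1.94-fold lower (-0.96), just short of the 2-fold rule. Probe set 1449001_at read 81.6 in the library labelled Fbxl10 and 297.1 in the empty vector library, 3.64-fold lower (-1.86). Both lay in the same direction, and the signal in the empty vector library was nearly the same at each, while that in the library labelled Fbxl10 was not. The median of both was -1.41. With Ivd counted as lower, as under 4 of the 11 alternatives, 4 of the 10 enzymes passed 2-fold. Under those 4 alternatives between 5.02% and 8.43% of detected genes were lower, the most when centred on the hybridization spike-ins.

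Methylcrotonyl-CoA carboxylase acts next on leucine. Mccc1, its alpha subunit with the biotin, read 260.6 in the library labelled Fbxl10 and 279.5 in the empty vector library at 1417227_at (-0.10). Mccc2, its beta subunit, had 3 detected probe sets, and the brightest, 1454840_at, read 148.3 in the library labelled Fbxl10 and 161.9 in the empty vector library (-0.13). Probe set 1428021_at read 57.6 in the library labelled Fbxl10 and 59.3 in the empty vector library (-0.04), and 1432472_a_at read 76.3 in the library labelled Fbxl10 and 88.1 in the empty vector library (-0.21). All 3 probe sets of Mccc2 and the 1 of Mccc1 thus differed by at most 1.15-fold between the libraries. The log2 differences of the 2 subunits lay -0.03 apart, and between -0.10 and -0.03 over the alternatives.

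Propionyl-CoA carboxylase and methylmalonyl-CoA mutase carry the carbon of valine and isoleucine into the citric acid cycle. Pcca, the biotin-bearing alpha subunit of the carboxylase, read 353.4 in the library labelled Fbxl10 and 361.9 in the empty vector library at 1451405_at (-0.03). A second probe set, 1447577_x_at, read 16.6 in the library labelled Fbxl10 and 11.2 in the empty vector library, below the threshold in both, and carries no fold. Pccb, the beta subunit, read 108.1 in the library labelled Fbxl10 and 125.2 in the empty vector library at 1450969_at (-0.21), and its ratio in the authors' deposited table was 0. Mut, the vitamin B12-dependent mutase, read 169.8 in the library labelled Fbxl10 and 251.3 in the empty vector library at 1448486_at, 1.48-fold lower (-0.57), with 13.6% of detected genes as low or lower. Its other probe set, 1416839_at, was below the threshold in both libraries, at 3.2 in the library labelled Fbxl10 and 5.8 in the empty vector library.

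**Figure D2:**
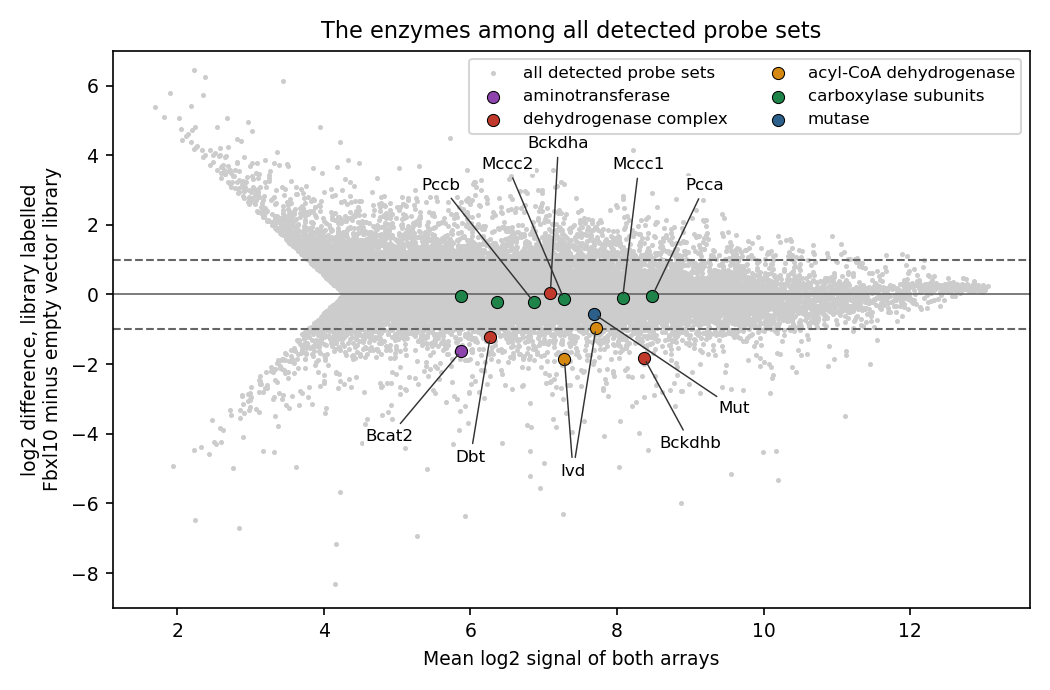
Log2 difference, library labelled Fbxl10 minus empty vector library, against the mean log2 signal of both arrays for each detected probe set (grey) and for the 13 detected probe sets of the 10 enzymes (coloured by role, with unlabelled green points for the dimmer probe sets of Mccc2); dashed lines mark 2-fold. Bckdhb, Bcat2, Dbt and 1 probe set of Ivd lie below the lower line, and the carboxylase subunits and Bckdha lie close to 0 over the same range of brightness.

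The authors' deposited table also gives a log2 ratio to 1 decimal for each probe set, and it ordered the enzymes much as the signals did. In the authors' deposited table Bckdhb stood at -1.6, Dbt at -1.4, Bcat2 at -1.3, and Ivd at -1.1 and -1.9 for its probe sets. The authors' deposited table put Bckdha at 0 and the detected probe sets of the carboxylase subunits between -0.3 and 0. By that ratio Dbt was lower than Bcat2, the opposite of their order by the signals.

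Whether the rest of the pathway showed the same was read from further enzymes of branched-chain breakdown, of which 12 were detected and 2 more were not analysed here. Past 2-fold in the library labelled Fbxl10 were 2 of the 12 in the lower direction and 1 in the higher, against 5.33% and 9.75% of all detected genes, with 10 below 0 and a median of -0.43. Aldh6a1, the methylmalonate semialdehyde dehydrogenase that yields propionyl-CoA from valine, was lowest of the 12. It read 200.4 in the library labelled Fbxl10 and 479.7 in the empty vector library, 2.39-fold lower (-1.26). Echs1, the short-chain enoyl-CoA hydratase, which also serves fatty acid oxidation, read 460.8 in the library labelled Fbxl10 and 1036 in the empty vector library, 2.25-fold lower (-1.17). By steps, at their brightest probe sets, 4 valine enzymes (Acad8, Hibch, Hibadh and Aldh6a1) lay between -1.26 and -0.38. The 3 grouped as isoleucine enzymes (Acadsb, Hsd17b10 and Acat1) lay between -0.63 and -0.26. Echs1 was counted in neither group. Dimmer detected probe sets outside these ranges were those of Acad8 (0.51) and Hibch (0.27) and 1 of Acat1 (-0.96). The single higher gene was Bcat1, the cytosolic aminotransferase that catalyses the same reaction as Bcat2. Bcat1 read 62.0 in the library labelled Fbxl10 and 10.5, below the threshold, in the empty vector library, at least 3.20-fold higher, and 1 of 12 is near the share of all detected genes that were higher. Bcat1 was lost where both signals, or 1 of at least 100, were required, which left 0 of the list past 2-fold higher.

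**Figure D3:**
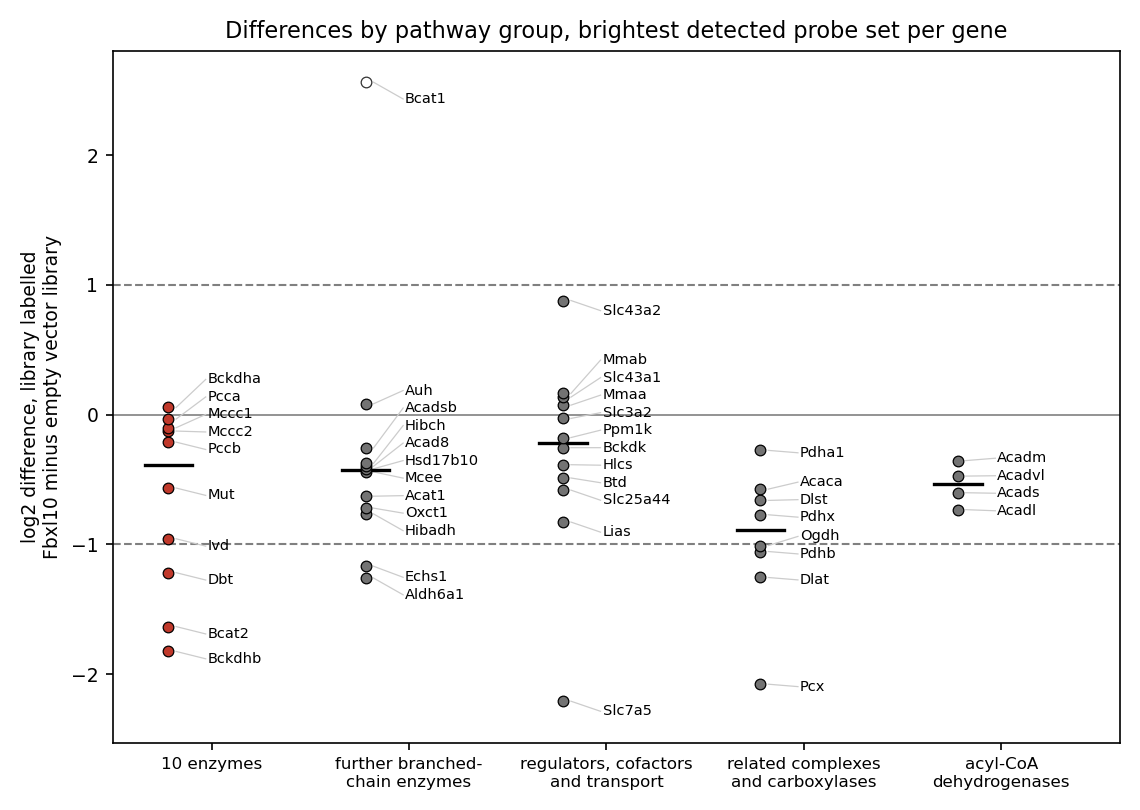
Log2 difference, library labelled Fbxl10 minus empty vector library, of each detected gene at its brightest probe set in 5 groups, the 10 enzymes in red; short black bars are group medians, dashed lines mark 2-fold, and an open circle marks a gene with 1 signal below the threshold. The 10 enzymes spread from -1.82 for Bckdhb to 0.06 for Bckdha, and Bcat1 stands alone above the upper line.

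Of 12 regulators, cofactor genes and transporters of the pathway detected, 1 was past 2-fold lower and 0 past 2-fold higher, against 5.33% and 9.75% of all detected genes, around a median of -0.22. The count of lower genes was 2 when centred on the spike-ins, against 8.43% of detected genes, and 2 of 13 with no filter on low values, against 10.4% of all genes. Counts of 1 or 2 genes say little about the list. The lower one was Slc7a5, the light chain of the LAT1 transporter that brings large neutral amino acids, the branched ones among them, into the cell. It read 87.0 in the library labelled Fbxl10 and 402.1 in the empty vector library, 4.62-fold lower (-2.21). Its heavy chain Slc3a2, named after its value was seen, read 745.7 in the library labelled Fbxl10 and 761.0 in the empty vector library (-0.03). The highest was Slc43a2, a further transporter of these amino acids, at 0.88. The kinase Bckdk, which inactivates the dehydrogenase complex, and the phosphatase Ppm1k, which reactivates it, were at -0.25 and -0.18 at their brightest probe sets, both named after their values were seen. Klf15, a transcription factor of branched-chain breakdown in mouse muscle and also named afterwards, was below the threshold in both libraries.

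Enzymes built on the same plan were set beside the 10 enzymes, since the pyruvate and 2-oxoglutarate dehydrogenases share the E1, E2 and E3 layout and pyruvate and acetyl-CoA carboxylases share biotin. Of 8 detected, 4 were past 2-fold lower and 0 past 2-fold higher, against 5.33% and 9.75% of all detected genes, with a median of -0.89. With the trend on brightness removed 2 of 8 were past 2-fold lower, against 6.97% of detected genes. Pcx, pyruvate carboxylase, read 648.7 in the library labelled Fbxl10 and 2738 in the empty vector library, 4.22-fold lower (-2.08), while the 4 carboxylase subunits of branched-chain breakdown lay between -0.21 and -0.03. Acaca, an acetyl-CoA carboxylase gene, was within 2-fold, at -0.57 at its brightest probe set and -0.06 at its other. In the pyruvate dehydrogenase complex the E1 alpha gene Pdha1 was at -0.28, the highest of the 8, the E1 beta gene Pdhb at -1.05 and the E2 gene Dlat at -1.26. The log2 difference of Pdhb minus that of Pdha1 was -0.78 (-0.80 to -0.70 over the alternatives), and that of Dlat minus Pdha1 was -0.98 (-1.27 to -0.97). The alpha subunit was therefore the least different of the 3 in both complexes, and whether the gap differs between the complexes was not tested. Ogdh, E1 of the 2-oxoglutarate complex, was at -1.01, just past 2-fold. The E2 gene of that complex, Dlst, was at -0.66 and so less different than its E1. Pdhx, a further gene of the pyruvate dehydrogenase complex, was at -0.77. Dlst, Pdhx and Acaca were named after their values were seen. Acyl-CoA dehydrogenases related to Ivd lay within 2-fold, 4 of 4, against 9618 of 11326 detected genes, so this count says little about them. They ran between -0.73 for Acadl and -0.35 for Acadm, with a median of -0.54. Ivd at its brightest probe set (-0.96) was within 2-fold too.

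**Figure D4:**
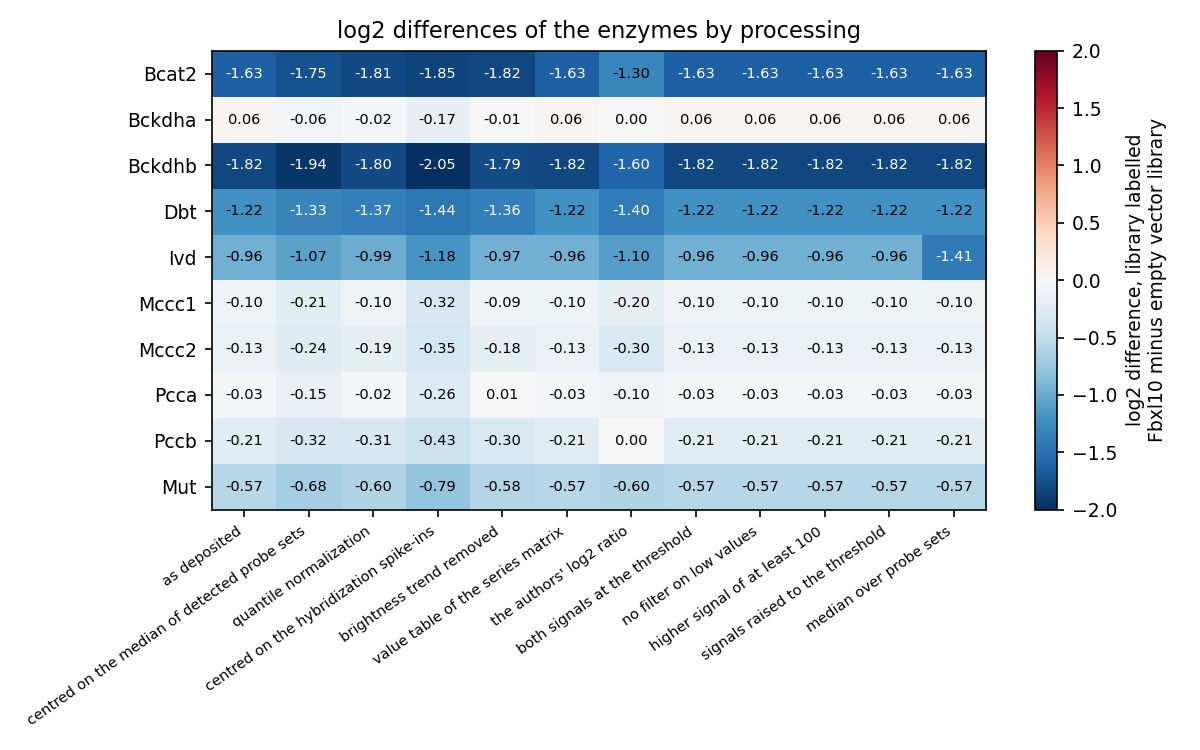
Log2 difference, library labelled Fbxl10 minus empty vector library, of each of the 10 enzymes (rows) with the signals as deposited and under 11 alternatives for processing (columns), from blue for lower to red for higher. Bcat2, Bckdhb and Dbt are past -1 in every column, Ivd crosses -1 in 4 of them, and Bckdha changes sign between 0.06 and -0.17.

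Both arrays had been scaled to the same trimmed mean, but their median signals were 21.3 in the library labelled Fbxl10 and 17.6 in the empty vector library, and the median log2 difference over detected probe sets was 0.11. Of all genes past 2-fold, 64.6% were higher as deposited, 55.2% when centred on that median, 54.6% with quantile normalization, 47.2% with the trend on brightness removed and 44.2% when centred on the hybridization spike-ins. Relative to the shift of 0.11, Bckdha was at -0.06 and the carboxylase subunits were between -0.32 and -0.15, so the sign of Bckdha depended on the scaling. So did that of Pcca, which was at 0.01 with the trend on brightness removed. For Bcat2, Bckdhb and Dbt, which had 1 probe set each, 6 of the 11 alternatives leave the value as deposited by construction. Under the other 5, which are the 4 scalings named above and the authors' ratio, the direction and the 2-fold call of these 3 genes were the same as with the signals as deposited.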

How the data were processed

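Total RNA of 2 samples of 3T3-L1 cells was measured on 1 Affymetrix array each, with biotin labelling by the manufacturer's standard procedure, per the labels. Per array, the deposited table gives a linear signal intensity for each probe set, which the authors had scaled to a mean of 100 after trimming 2% at each end. It also holds the authors' deposited log2 ratio, to 1 decimal. The summarisation software is not given in the sources used here. A second deposited value table held identical intensities.

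Samples were grouped by their labelled treatment. Log2 differences (library labelled Fbxl10 minus empty vector library) were computed in Python 3.11.15 with pandas 2.3.3 and numpy 2.4.6 from the signals as deposited, over all probe sets with 1 symbol (33957, of which 31550 matched a symbol or synonym of RefSeq GRCm38.p6). The detection threshold was the median of all signals, 19.4. For each gene the brightest detected probe set was taken, and a difference with 1 signal below the threshold is given as a bound over 19.4. With 1 array per group there is no test, and precision is limited by the number of arrays.

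All 10 enzymes are named with every probe set, and from each further list, markers included, the genes past 2-fold, the highest and the lowest. The enzymes, lists and alternatives were chosen with earlier results of these data known. The alternatives were median centring, quantile normalization, spike-in centring, removal of the brightness trend (lowess in statsmodels 0.14.6, span 0.3), the second value table, the authors' ratio, 3 other filters on low values, raising low signals to 19.4, and the median over probe sets. Protein features of the enzymes were not analysed here. Some genes of the lists are not reported here.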

Additional observations from a re-analysis of the deposited data

How the results depend on the processing

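Over the 11 alternatives the number of the 10 enzymes at least 2-fold lower was 3 or 4, the number at least 2-fold higher stayed at 0, and their median ran from -0.61 to -0.39. The count was 4, with Ivd added to Bcat2, Bckdhb and Dbt, under 4 alternatives. These were centring on the median of detected probe sets, centring on the hybridization spike-ins (mean log2 difference 0.22), the authors' ratio, and the median over probe sets. In that order, 6.52%, 8.43%, 5.02% and 5.03% of all detected genes were at least 2-fold lower. Over all 11 alternatives this share ran from 4.26% with signals raised to 19.4 to 10.4% of all genes with no filter. Of 275 values recomputed, 268 moved by less than the SD between probe sets of 1 gene or, for counts, by no more than 1.5 times, 7 moved by more and 0 called values changed sign. By construction 6 of the 11 alternatives (5 for Ivd) leave an enzyme's own value as deposited. The 7 were Bcat2 by the authors' ratio (-1.30), Ivd by the median over probe sets (-1.41) and the 5 counts that follow. Among the further branched-chain enzymes, 0 in place of 1 were at least 2-fold higher with both signals required at the threshold or a signal of at least 100, since either filter removes Bcat1. Among regulators, cofactor genes and transporters, 2 in place of 1 were past 2-fold lower when centred on the spike-ins and with no filter on low values. Among the enzymes of the same plan, 2 in place of 4 were at least 2-fold lower with the brightness trend removed, and the cause was not tested. As deposited, Ogdh (-1.01) and Pdhb (-1.05) of that list lay just past the cutoff. Its count was 3 with quantile normalization and with the median over probe sets, a change within 1.5 times. Over all genes, 604 were past 2-fold lower as deposited and 955 when centred on the spike-ins, and 1104 were past 2-fold higher as deposited and 645 of 10112 with both signals required at the threshold; without a filter, 1993 of 19085 were lower and 3278 higher. Signals near 19.4, such as that of Bcat2 in the library labelled Fbxl10, limit the precision. No paired analysis was possible because each group is 1 sample.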
